A study of Homo sapiens with 2 samples.

Results

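Described here are the transcripts of 10 genes that join or mark broken DNA ends, in 2 libraries of a carboplatin-treated ovarian cancer line. The genes were XRCC5, XRCC6, PRKDC, LIG4, XRCC4, NHEJ1, DCLRE1C, TP53BP1, RIF1 and PARP1, chosen by symbol. All 10 were found among the 26255 gene symbols of each deposited table. OVSAHO is an established human line of serous ovarian cancer. The perturbed group, OVSAHO-A2-siA4, had raised SMARCA2 and lowered SMARCA4. The genotype label calls SMARCA2 stable, with no direction, and SMARCA4 a knockdown. The control group, OVSAHO-Ctrl-siNC, is labelled WT. Both cultures were held in 25 µM carboplatin for 2 days, so the libraries hold no untreated cells. SMARCA2 and SMARCA4 are the alternative ATPases of the SWI/SNF chromatin remodelling complex. Each group had 1 library, whose title carries a number of its own that the labels do not explain, so a difference below is between 2 cultures and has no error between cultures and no p-value.

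Classical non-homologous end joining seals a DNA break without a template. The Ku heterodimer, made by XRCC5 and XRCC6, slides onto the ends and recruits the kinase DNA-PKcs from PRKDC. The nuclease Artemis from DCLRE1C trims ends that cannot be joined as they are. DNA ligase IV from LIG4, held by its scaffold XRCC4 and aided by XLF from NHEJ1, seals the break. TP53BP1 and its effector RIF1 gather on chromatin beside a break and hold back the resection that would commit it to homologous recombination. PARP1 binds nicks and breaks and builds poly(ADP-ribose) chains that call in repair factors, and it is the main target of PARP inhibitors, which are used in serous ovarian cancer. Carboplatin crosslinks DNA, and breaks arise when crosslinks are processed.

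Levels are in FPKM as the authors deposited them, a unit of fragments per 1 kilobase of transcript and per 1000000 mapped fragments. How the total of each library was scaled is not given in the sources used here. FPKM is per length, so levels of different genes can be set side by side. Depth was rebuilt from the steps of low values, at about 8850000 fragments in the perturbed library and 9050000 in the control. SMARCA2 had 2.60 FPKM in the perturbed library and 0.205 in the control, and SMARCA4 had 4.49 and 27.9, which are the directions the series text states. The SMARCA2 values rested on about 31.8 and 2.56 fragments. Of 10 epithelial and serous ovarian markers, 9 were at 1 FPKM or more in each library, and MUC16 was at 0 and 0.061. Their sum was 1109 FPKM perturbed and 1562 control, and most of that gap was KRT7, at 119 and 539.6 FPKM. Of the 10, 6 were above their control value in the perturbed library, among them PAX8 at 42.1 against 21.9 FPKM and WT1 at 5.52 against 1.53. Of 7 fibroblast markers, 6 were at 0 in both libraries, and the leukocyte markers PTPRC, CD3E and ITGAM were at 0 in both. The 5 endothelial markers summed to 0.806 FPKM perturbed and 0.735 control. Another gene of the leukocyte list, CD68, measured 11.1 FPKM after perturbation and 34.9 FPKM in the control.

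The end-joining transcripts did not move as a block. PRKDC was higher in the perturbed library and LIG4 was lower, and the other 8 lay within 2-fold by a rule that asks for 1 FPKM in at least 1 library and a 2-fold ratio after 1 FPKM is added to each value. The counts of 1 higher and 1 lower among 10 (10% each) stand beside 7.85% of 11785 genes called higher and 7.61% called lower by the same rule, so their number was near the background. All 10 members passed the level minimum, LIG4 through the control library alone. The median log2 ratio with 1 FPKM added was 0.14 over the 10 genes, beside -0.06 over the 11785. Of the 10, 6 had a ratio above 0 and 4 below, beside 5484 above and 6301 below among the 11785. At 1.5-fold, 2 were higher, PRKDC and XRCC4, beside 19.1% of all tested genes, and 1 was lower, LIG4, beside 21.3%. Calls in either direction made up 15.5% of genes at 2-fold. In bulk RNA, fewer cells that express a gene and less of its RNA per cell cannot be told apart. A change of scaling moved the balance of all genes: 925 were higher and 897 lower as deposited, but 1158 and 684 after centring on the median ratio, 1257 and 685 after scaling to a common sum, and 1208 and 648 with a trimmed mean of ratios.

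**Figure D1:**
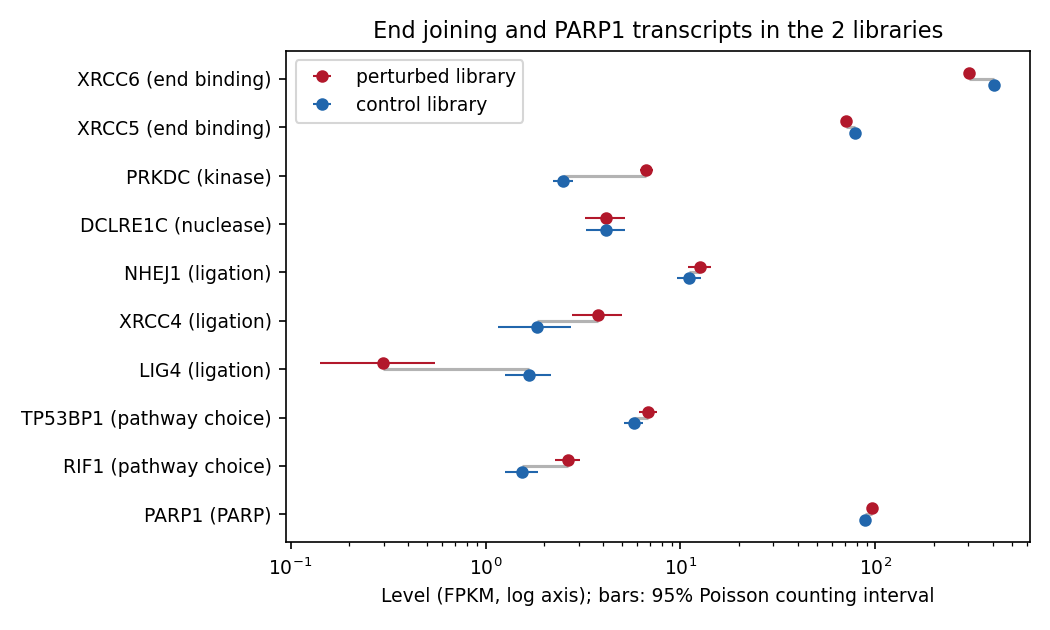
Level of each of the 10 genes in FPKM on a log axis, perturbed library in red and control library in blue, with 95% Poisson counting intervals as bars. XRCC6, PARP1 and XRCC5 stand above 70 FPKM in each library, and LIG4 in the perturbed library, at 0.299 FPKM, is the lowest point.

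The genes differed widely in level. XRCC6, PARP1, XRCC5, NHEJ1 and TP53BP1 had the 5 highest values, in that order, in each library. XRCC6 exceeded 95.6% of the 11785 genes in the perturbed library and 96.2% in the control. LIG4 exceeded 1.14% of them in the perturbed library and 17.7% in the control. In the control, the counting intervals of XRCC4 (1.16 to 2.75 FPKM), LIG4 (1.27 to 2.18) and RIF1 (1.26 to 1.87) overlapped, so these 3 could not be ordered. XRCC4 also overlapped PRKDC (2.21 to 2.80), and DCLRE1C (3.29 to 5.21) overlapped TP53BP1 (5.12 to 6.42). In the perturbed library, LIG4 (0.142 to 0.554 FPKM) lay below RIF1 (2.27 to 3.06) with no overlap. There the intervals of RIF1 and XRCC4 (2.77 to 5.04 FPKM) overlapped, as did those of XRCC4 and DCLRE1C and those of PRKDC and TP53BP1.

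The Ku subunits were abundant and similar between the libraries. XRCC6, which encodes Ku70, had 303 FPKM in the perturbed library and 405 in the control. It was 1.34-fold lower (95% counting interval 1.29 to 1.39). XRCC5, which encodes Ku80, was at 70.6 and 78.5 FPKM, 1.11-fold lower (1.05 to 1.18). The direction of XRCC5 was not stable, since its log2 ratio was -0.15 as deposited and 0.07 once cubic trends on the length, GC content and level of transcripts were taken out. The log2 ratio of XRCC6 moved from -0.42 to -0.16 by the same removal. The proteins form a 1:1 dimer, yet XRCC6 had 4.30 times the FPKM of XRCC5 in the perturbed library and 5.16 times in the control. Intervals here cover counting error alone, and 68.2% of 11277 genes with a usable transcript length had an interval that left out a fold of 1, as did 8 of the 10.

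PRKDC, the catalytic subunit that Ku recruits, had 6.69 FPKM in the perturbed library and 2.49 in the control. It was 2.69-fold higher (2.34 to 3.09), on about 745 and 283 fragments, with a log2 ratio of 1.14 after 1 FPKM was added. That ratio exceeded the ratios of 94.6% of the 11785 genes. Relative to XRCC5, PRKDC stood at 0.0948 in the perturbed library and 0.0317 in the control, a 2.99-fold difference. PRKDC has the longest transcript of the 10, at least 12784 bases, and class medians of the log2 ratio were higher for long transcripts. They were -0.09 in 1811 genes up to 1000 bases, -0.16 at 1000 to 2000, -0.10 at 2000 to 4000 and 0.17 at 4000 to 8000. Of 319 tested genes with transcripts over 8000 bases, 20.7% were called higher and the median log2 ratio was 0.55. The 4490 genes with a mean level of up to 5 FPKM, PRKDC among them, had a median of 0.19. Medians were -0.15 at 5 to 50 FPKM, -0.28 at 50 to 200 and -0.15 above 200. With the trends on length, GC content and mean level taken out together, PRKDC was at 0.58 and no longer past 2-fold, and the part of each trend was not tested. DCLRE1C, the end-trimming nuclease, was at 4.14 FPKM perturbed and 4.17 control. Its fold of 0.993 had an interval of 0.711 to 1.38, so no difference was detectable at this depth.

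**Figure D2:**
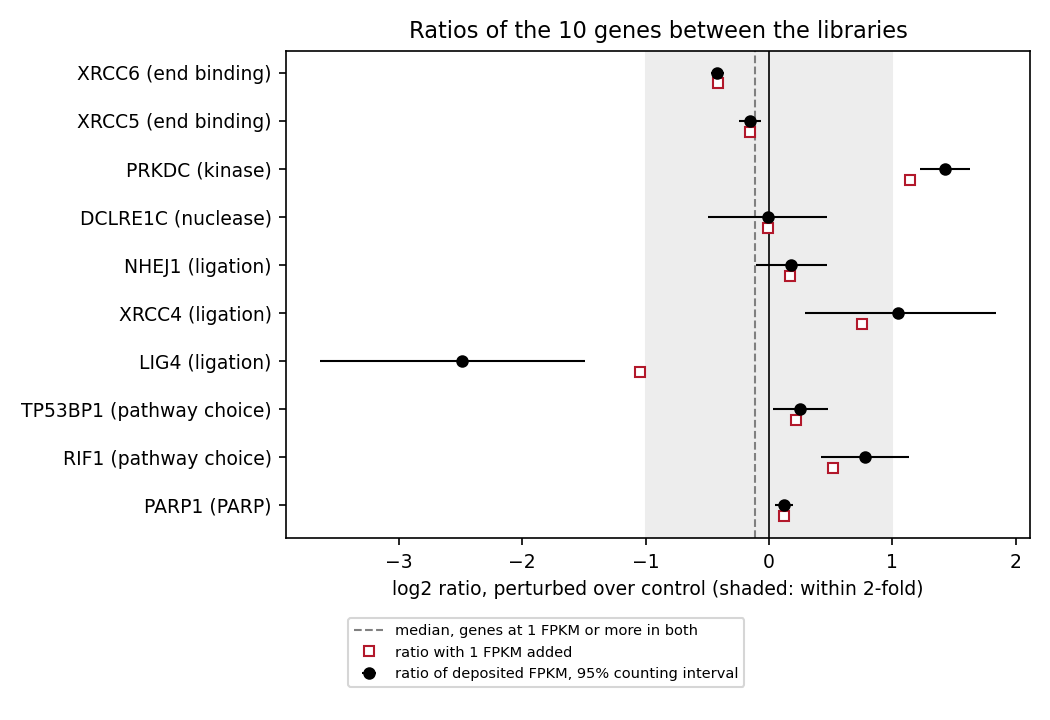
log2 ratio of each gene, perturbed over control. Black points are ratios of the deposited FPKM with 95% counting intervals, red squares are ratios after 1 FPKM is added to each value, the shaded band is within 2-fold, and the dashed line is the median, -0.11, over genes that reached 1 FPKM in each library. PRKDC lies to the right of the band, at 1.43 without and 1.14 with the added FPKM. LIG4 lies to the left, at -2.49 and -1.04.

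The ligation step held the widest contrast. LIG4, the ligase itself, had 0.299 FPKM in the perturbed library and 1.68 in the control, 5.61-fold lower (2.81 to 12.5). These values rested on about 9.75 and 55.9 fragments, where 1 fragment was worth 0.0307 and 0.0300 FPKM. The log2 ratio was -1.04 with 1 FPKM added, just past the rule, and lower than that of all but 6.86% of the 11785 genes. It was -1.05 with the trends removed, -0.94 after centring on the median and -0.33 with 5 FPKM added, so the call, though not the direction, depended on these choices. XRCC4, the scaffold without which the ligase is unstable, went the other way. It was at 3.78 FPKM against 1.83, 2.07-fold higher (1.23 to 3.58), on about 46.2 and 22.8 fragments. With 1 FPKM added its log2 ratio was 0.76, within the rule, and with 0.1 FPKM added it was 1.01, past it. The transcripts of the partners had overlapping intervals in the control, with XRCC4 at 1.09 times LIG4, and stood at 12.7 to 1 in the perturbed library. No interval was computed for these ratios, and the 12.7 rests on about 9.75 fragments of LIG4. NHEJ1, which encodes XLF and stimulates the ligase, was at 12.6 and 11.1 FPKM, a fold of 1.13 (0.928 to 1.39). It stood at 3.33 times XRCC4 in the perturbed library and 6.07 times in the control.

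**Figure D3:**
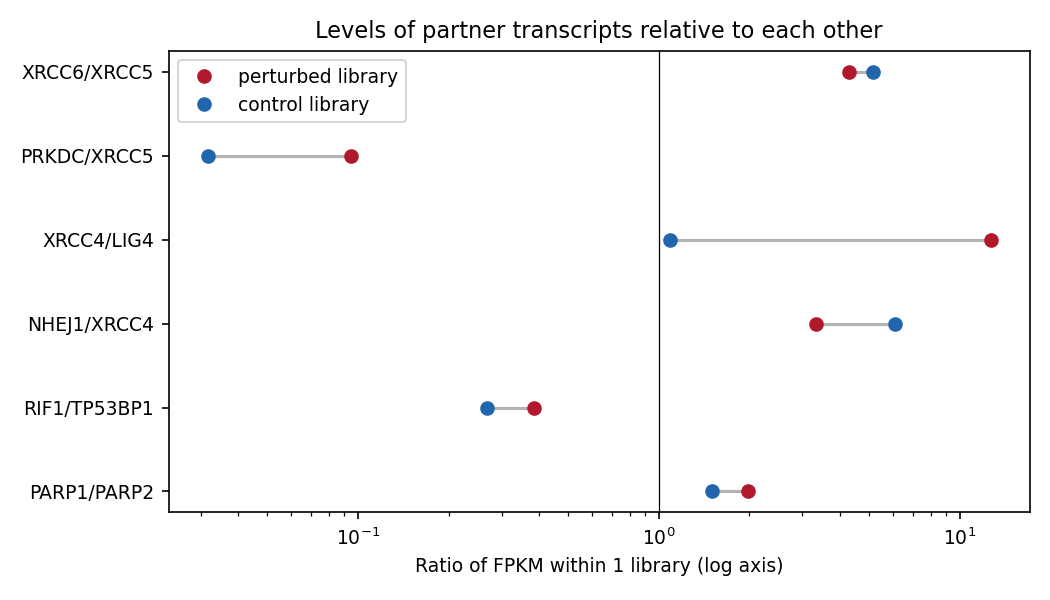
FPKM of the first gene over that of the second within a library, on a log axis, perturbed in red and control in blue. XRCC4/LIG4 shows the widest gap, 12.7 against 1.09, followed by PRKDC/XRCC5, 0.0948 against 0.0317. The points carry no counting intervals.

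LIG4 has 5 annotated starts in the RefSeq promoter table (build GRCh38.p14), and gene-level FPKM does not tell which was used. To show the sequence context of the member with the largest fold, the 250 bases upstream of its second listed start are given, the window of these 5 taken because no annotated exon lies in it. The corresponding windows of PARP1 (abundant, little difference) and DCLRE1C (low, little difference) are shown for comparison. All lie on the minus strand and are written 5′ to 3′ toward the gene, at chr13:108215537-108215786 for LIG4, chr1:226408094-226408343 for PARP1 and chr10:14954433-14954682 for DCLRE1C. Capitals mark matches, on either strand, to a fixed set of 8 motifs.
LIG4: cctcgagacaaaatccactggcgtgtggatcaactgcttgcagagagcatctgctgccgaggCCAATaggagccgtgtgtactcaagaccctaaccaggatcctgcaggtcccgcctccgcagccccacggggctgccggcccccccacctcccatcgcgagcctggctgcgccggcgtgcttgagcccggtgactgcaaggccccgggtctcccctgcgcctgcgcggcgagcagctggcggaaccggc
PARP1: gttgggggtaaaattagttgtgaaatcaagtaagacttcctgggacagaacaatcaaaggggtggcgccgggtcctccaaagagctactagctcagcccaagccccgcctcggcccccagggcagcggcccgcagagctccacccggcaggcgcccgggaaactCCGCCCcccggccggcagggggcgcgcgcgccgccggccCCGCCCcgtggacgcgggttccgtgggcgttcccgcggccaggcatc
DCLRE1C: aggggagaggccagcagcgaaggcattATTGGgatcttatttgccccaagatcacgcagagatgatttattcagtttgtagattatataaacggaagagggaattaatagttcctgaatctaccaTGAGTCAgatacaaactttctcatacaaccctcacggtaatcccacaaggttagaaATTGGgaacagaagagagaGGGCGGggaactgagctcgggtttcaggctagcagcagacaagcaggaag

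The motifs were CCAAT (the NF-Y box), GGGCGG (the Sp1 GC box), CCGGAAG (ETS), GCATGCGC (NRF1), TTTNGCGC (E2F), TGANTCA (AP-1), TGACGTCA (CRE) and GGAATG (TEAD), and no printed match overlaps another motif. The LIG4 window held 1 CCAAT box, and PARP1 held 2 GC boxes. DCLRE1C held 2 CCAAT boxes, 1 GC box and 1 AP-1 match. Over all 35116 promoter windows of the same length, 32.0% held a CCAAT box, 42.6% a GC box and 6.57% an AP-1 match. The windows not printed held other matches. Of the 5 LIG4 windows, window 1 held an ETS and an NRF1 match, windows 3 and 4, which share bases, each a GC box, an ETS and a CRE match, and window 5 a CCAAT box. DCLRE1C has 2 windows, and the second held 2 CCAAT boxes, 2 GC boxes and 1 TEAD match, with no AP-1 match. ETS letters were in 8.52% of all windows, NRF1 in 2.63%, CRE in 1.65% and TEAD in 11.9%. The windows of LIG4 and PARP1 were rich in G and C (68.8% and 70.4%, with 21 and 26 CpG), and that of DCLRE1C was not (45.6%, with 6), beside medians of 58.0% and 11 over all windows. Of the 10 genes, 8 matched the table.

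TP53BP1 and RIF1, which steer breaks toward end joining, were both somewhat higher in the perturbed library and neither passed the rule. TP53BP1 was at 6.85 FPKM against 5.75, a fold of 1.19 (1.02 to 1.39). In the GENCODE 29 annotation, 28.7% of its exonic bases are also exonic in TUBGCP4 on the other strand, and the library kit does not mark strand. TUBGCP4 was at 7.91 and 9.93 FPKM, and its part in the TP53BP1 value was not tested. RIF1 was at 2.64 FPKM against 1.54, a fold of 1.71 (1.34 to 2.2). RIF1 stood at 0.386 times TP53BP1 in the perturbed library and 0.269 times in the control. Both have transcripts of 4000 to 8000 bases at their shortest, a class of 1859 genes with a median log2 ratio of 0.17, against 0.22 for TP53BP1 and 0.52 for RIF1. With the trends removed they were at 0.03 and 0.25.

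PARP1 was the second most abundant of the 10 and nearly level, at 95.9 FPKM in the perturbed library and 88.2 in the control. The fold was 1.09 (1.03 to 1.14), on about 3190 and 3000 fragments. Its log2 ratio was between 0.11 and 0.26 in the 11 alternatives. The filters, rules of size and added FPKM cannot change its direction, and the scalings raised it. With the trends removed it was 0.26. PARP2, the paralog that shares its activation by breaks, was at 48.5 and 58.9 FPKM, 1.22-fold lower (1.10 to 1.34). The log2 ratio of PARP2 was -0.28 with 1 FPKM added and 0.02 with the trends removed. In deposited FPKM, PARP1 was at 1.98 times PARP2 in the perturbed library and 1.5 times in the control.

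**Figure D4:**
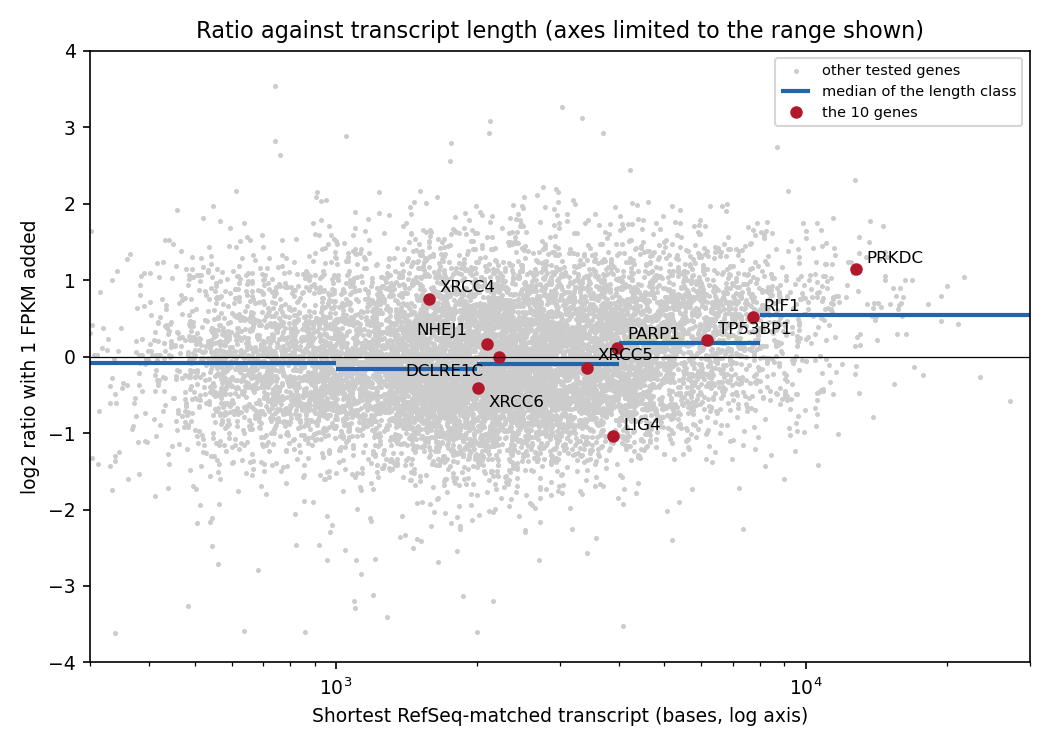
log2 ratio with 1 FPKM added against the shortest RefSeq-matched transcript, on a log axis. The 10 genes are in red, and blue lines mark the median of each length class. Grey points are tested genes with a transcript of at least 300 bases, and genes outside the axis limits are not shown. Class medians are -0.09 up to 1000 bases, -0.16 at 1000 to 2000 and 0.55 above 8000. PRKDC sits in the longest class and LIG4 lies well below the median of its own class, -0.10.

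The 10 genes were also set beside genes of like length. LIG4, XRCC5, XRCC6, NHEJ1, DCLRE1C and PARP1 have shortest transcripts of 2000 to 4000 bases, where 6.55% of 3860 genes were called higher and 8.13% lower. XRCC4 is in the class of 1000 to 2000 bases, where 5.83% of 3428 genes were called higher. Its ratio with the trends removed was 0.99, larger than the 0.76 before and short of the rule. LIG4 was the sole member past the rule after this removal.

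Factors that work beside the 10 genes were grouped in wider lists, described by counts over the genes reported here. Genes left out include some past the rule, so these counts are not those of the whole lists. Over all 11785 genes the rule called 7.85% higher and 7.61% lower. The counts below were not tested against these shares. Of 10 other classical end-joining factors tested and reported, none passed the rule in either direction. The most abundant were CYREN, a regulator of end joining, at 135 and 224 FPKM, and PAXX, the third relative of XRCC4 and XLF, at 133 and 90.8 FPKM, a fold of 1.47 (1.31 to 1.65). DNTT, the template-free polymerase of lymphocytes, was listed at 0 in both and was named after its values were seen. The median log2 ratio of the 10 was -0.11.

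None of 14 tested genes in the chromatin signalling and effector list of TP53BP1 and RIF1 passed the rule. Of the 14, 11 had a ratio below 0, beside 6301 of all 11785 genes. The list median was -0.23, and -0.10 with the trends removed. CTC1 was at 0.772 FPKM perturbed and 1.99 control, 2.58-fold lower (1.69 to 4.03), on about 31.4 and 82.9 fragments. Its log2 ratio was -0.76 with 1 FPKM added, and -1.07 with the trends removed, past the rule. DYNLL1, a light chain that binds TP53BP1, was at 778 and 913 FPKM. MAD2L2, the shieldin subunit that joins RIF1 to its effectors, was at 378 and 443 FPKM. Of the other shieldin subunits, SHLD1 was at 3.64 and 6.06 FPKM and SHLD2 at 6.10 and 6.10, and SHLD3 had no measured value. The fold of SHLD1, 0.601, had an interval of 0.272 to 1.27 on about 12.4 and 21.1 fragments, so no difference was detectable.

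The backup route, alternative end joining, and the resection that feeds it had 1 higher and none lower of 12 tested, with a median of 0.29. XRCC1, the scaffold of nick repair and of ligase III, was at 23.7 FPKM against 9.35, 2.53-fold higher (2.16 to 2.98). Its partner LIG3, the ligase that XRCC1 stabilises, was at 6.38 and 10.4 FPKM, 1.62-fold lower (1.33 to 1.99). The polymerase of this route, POLQ, was at 2.05 and 0.734 FPKM, a fold of 2.80 (2.05 to 3.86) that stayed within the rule at a log2 ratio of 0.82 and was 0.34 with the trends removed. The most abundant were the flap nuclease FEN1, at 147 and 229 FPKM, and the resection nuclease EXO1, at 26.95 and 51.0. CTC1, LIG3, POLQ, SHLD1 and SHLD2 were named after their values were seen.

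**Figure D5:**
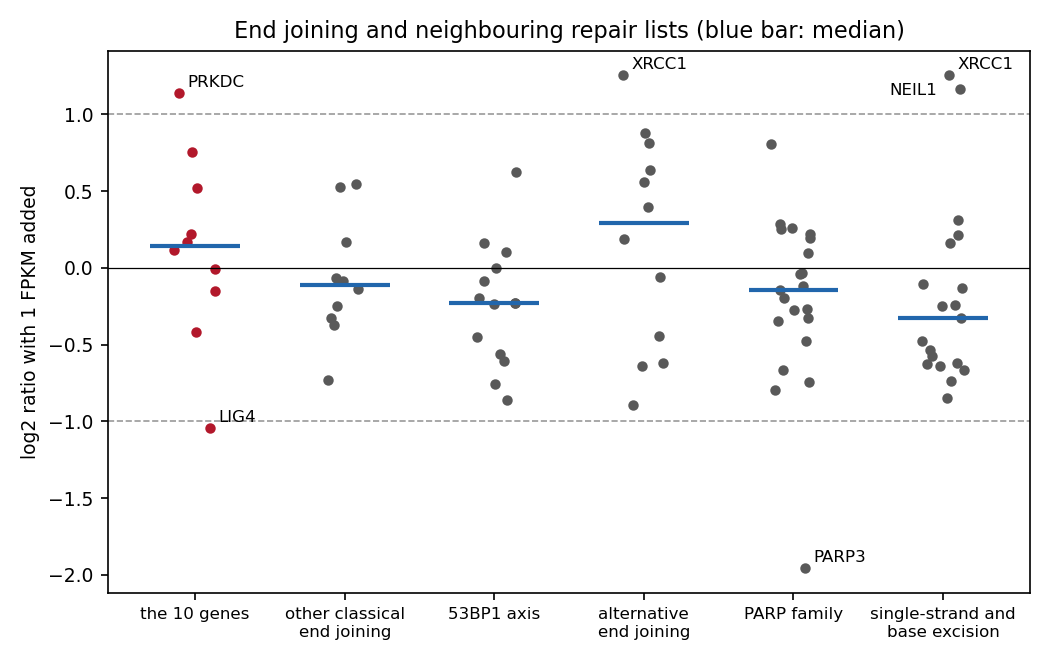
log2 ratio with 1 FPKM added for the 10 genes (red) and for tested and reported genes of 5 wider repair lists (grey), with each list's median as a blue bar and dashed lines at 2-fold. Reported genes beyond the lines are named. Among the wider lists XRCC1 and NEIL1 lie above and PARP3 below, and XRCC1 appears in 2 lists.

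In the PARP family and ADP-ribose turnover list, none of 21 tested was higher and 1 was lower, with a median of -0.14. The lower one was PARP3, a paralog of PARP1 that acts with APLF to favour end joining, at 3.55 FPKM against 16.7, 4.69-fold lower (3.60 to 6.20). APLF itself was at 2.78 and 2.36 FPKM. The most abundant were ADPRHL2, which removes the last ADP-ribose from serine, at 91.8 and 146 FPKM, and PARP2. HPF1, the cofactor that directs PARP1 to serine, was at 31.6 and 17.6 FPKM, a fold of 1.79 (1.47 to 2.18). Its log2 ratio was 0.81, and 1.17 with the trends removed. APLF and HPF1 were named after their values were seen.

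Single-strand break and base excision repair had 2 higher and none lower of 19 tested and reported. Of the 19 ratios, 14 were below 0, beside 6301 of all 11785. The list median was -0.33, and -0.20 with the trends removed. Besides XRCC1, the higher gene was the glycosylase NEIL1, at 1.53 FPKM against 0.130. Its fold of 11.8 had an interval of 2.80 to 114, since the control value rested on about 1.88 fragments. NEIL1 reached 1 FPKM in the perturbed library alone, and its log2 ratio of 1.16 became 0.92 with the trends removed, within the rule. The most abundant were the clamp PCNA, at 147 and 265 FPKM, and FEN1. Homologous recombination genes, the competing route, had 1 higher, BRCA1, and none lower of 15 tested, with a median of -0.04. BRCA1 was at 4.62 FPKM against 1.74, 2.65-fold higher (1.77 to 4.05), with a log2 ratio of 1.04, just past the rule. The most abundant of that list were the recombinase paralog RAD51C, at 53.4 and 74.2 FPKM, and the translocase RAD54L, at 34.3 and 27.1. Counting each reported gene of the 6 lists once, 3 of 86 were higher (XRCC1, NEIL1 and BRCA1), or 3.49%, and 1 was lower (PARP3), or 1.16%. Over all tested genes the shares were 7.85% and 7.61%, and leaving out genes past the rule lowers the list counts.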

How the data were processed

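RNA-seq of 2 OVSAHO cultures was used, grouped by genotype label. The authors deposited 1 table of FPKM per library, per the file headers. Build hg19, Cuffdiff 2.2.1, TopHat2 2.1.1, Bowtie2 2.2.8 and SAMtools 0.1.18 appear in the submitters' processing notes. For annotation, filters and scaling, the entry is: not given in the sources used here. Per the labels' protocols, cDNA came from the SMART-Seq HT kit and libraries from Nextera XT.

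With 1 library per group no test was run. A gene was tested against the rule of size at 1 FPKM or more in a library, and called at 2-fold with 1 FPKM added. Folds are ratios of deposited FPKM. Fragment numbers came from FPKM, depth and the shortest RefSeq-matched transcript in GENCODE 29 (GRCh38), at least 300 bases, less 200. Depth and this shortening were those that put the most values of single-transcript genes in a window 2% wide at 1 fragment. Intervals are exact 95% binomial (Clopper-Pearson) for folds and Poisson for levels; they cover counting error only, and PCR copies are not independent molecules. GENCODE 29 also gave GC content and neighbouring genes. Trends were cubic, on length, GC content and mean level, for 96.4% of tested genes. Scripts (Python 3.11.15) were tested on simulated data. The members, lists and alternatives were chosen with earlier results of these data known. Named genes were the 10, SMARCA2, SMARCA4, PARP2, PARP3, PAXX, and in each list those past the rule and the 2 most abundant. A few listed genes are not reported here and are left out of every list count and median, including genes past the rule of size. Alternatives were other pseudocounts, scalings, filters, rules of size and trend removal.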

Additional observations from a re-analysis of the deposited data

How the results depend on the processing

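No paired analysis was possible because each group has 1 library and the labels give no shared replicate number. Of the 10 genes, 1 was higher and 1 lower as reported. The number higher was 2, PRKDC and XRCC4, with 0.1 FPKM added (beside 13.8% of all genes) or a 1.5-fold rule (19.1%). It was 0 with 5 FPKM added (1.86%), a 4-fold rule (0.60%) or trends removed (6.70%). The number lower was 0 with 5 FPKM added (beside 3.22% of all genes) and with a 4-fold rule (0.71%). It was 0 after centring on the median (5.80%) and with a trimmed mean of ratios (5.50%). A minimum of 5 FPKM in a library (8.85%) or 1 FPKM in both (6.85%) also gave 0, since LIG4 then drops out. The median of 0.14 was 0.15 with 0.1 FPKM added, 0.12 with 5 FPKM, 0.28 scaled to a common sum, 0.24 centred, 0.26 with a trimmed mean, 0.17 with 1 FPKM in both and 0.16 with trends removed. For the 86 reported genes of the wider lists, 3 higher became 5 with 0.1 FPKM added (beside 13.8% of all genes). It became 0 with 5 FPKM added (1.86%) and 4 scaled to a common sum (10.5%). The number was 2 of 80 with 1 FPKM in both (beside 5.45%) and 1 of 63 with a minimum of 5 FPKM (6.96%). With a 4-fold rule it was 0 (0.60%). With a 1.5-fold rule it was 10 of 86, beside 19.1% of all genes. With trends removed it was 3 (beside 6.70%), with HPF1 in and NEIL1 out. NEIL1 also drops out with 1 FPKM in both or 5 FPKM in a library, and BRCA1 with 5 FPKM in a library. The 1 lower became 2, with CTC1 in, with 0.1 FPKM added (beside 10.8% of all genes) or trends removed (6.50%). It became 0 with a 4-fold rule (0.71%). With a 1.5-fold rule it was 15 of 86, beside 21.3% of all genes. PRKDC, LIG4, XRCC4 and RIF1 kept their direction under the scalings and the trend removal. The filters, the rules of size and the added FPKM cannot change a direction. The scalings raised the ratio of each of the 10 genes, and PRKDC, XRCC4 and RIF1 were already above 0. Under the scalings and the trend removal, the cause of these shifts was not tested. Over all genes the called split moved from 50.8% higher to 36.6% with 5 FPKM added, and the counts from 925 and 897 to 219 and 380, to 1630 and 1267 with 0.1 FPKM, to 557 and 700 with 1 FPKM in both, to 2253 and 2505 with a 1.5-fold rule and to 71 and 84 with a 4-fold rule. Among the 10, depth limits LIG4 and XRCC4 most. Of the other named genes, SMARCA2, NEIL1, SHLD1 and APLF also rest on few fragments. With the longest transcript or no shortening in place of the chosen lengths, settings added after the data were seen, 8 of the 10 intervals still left out a fold of 1.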

Other observations

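Several of the 10 genes start beside another protein-coding gene on the opposite strand, within 1000 bases in the GENCODE 29 annotation, and the partners' values were read as well. This search was added after the data were seen. PRKDC is paired head to head with MCM4, a subunit of the replicative helicase. PRKDC was 2.69-fold higher in the perturbed library, and MCM4 was 1.62-fold lower (counting interval 1.5 to 1.74), at 33.6 FPKM against 54.3. LIG4 is paired with ABHD13, a predicted hydrolase, which was at 2.94 FPKM against 5.54, 1.88-fold lower (1.52 to 2.34), beside 5.61-fold for LIG4. XRCC4 is paired with TMEM167A, a small Golgi protein, which was at 32.7 FPKM against 38.4 where XRCC4 was 2.07-fold higher. XRCC6 and its partner DESI1 were similar in ratio, 1.34-fold and 1.36-fold lower. MAP1A, the partner of TP53BP1, was at 1.16 and 0.921 FPKM. None of these partners passed the rule of size. Of the 5 pairs, 3 had ratios on the same side of 1 and 2, those of PRKDC and XRCC4, did not. The pair of TP53BP1 is among the 3 only by the point value of MAP1A.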
